A study of Mus musculus with 6 samples.

Results

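Gata1, Gata2, Klf1, Gfi1b, Tal1, Nfe2, Zfpm1, Lmo2, Ldb1 and Runx1 encode transcription factors and cofactors of blood stem cells and of the erythroid and megakaryocyte lineages. These 10 genes were taken by symbol from the deposited tables of 34745 genes, and all 10 passed the filter on low counts that left 12513 genes to be tested. The data are bulk RNA-seq of bone marrow HSCs from adult C57BL/6 mice, with 3 WT and 3 Med23-deficient (KO) libraries. Med23 is a subunit of the Mediator complex, which joins DNA-bound transcription factors to RNA polymerase II. WT samples carried the floxed Med23 allele (Med23floxp/flowp in the labels) without Cre, and KO samples carried that allele with Mx1-cre. Mx1-cre is an interferon-inducible Cre, started here by injections of poly(I:C), and it acts in other tissues that answer interferon as well as in HSCs, so the deletion was not restricted to the cells that were sorted. Because the WT mice carried no Cre, loss of Med23 and presence of Cre cannot be told apart. Whether the WT mice of these libraries received poly(I:C), how long after it the cells were sorted, and whether each sample came from its own animal are not given in the sources used here, and p-values therefore measure only the spread between these samples. HSCs were sorted as LSK (lineage-negative, Sca1-positive, cKit-positive) cells that were CD150+, CD34- and CD48-.

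GATA factors bind a short DNA motif beside E-box motifs that are bound by Tal1 with its E protein partners, and the LIM-only protein Lmo2 together with Ldb1 bridges them into a single complex that can loop distant enhancers to promoters. Gata2 is the GATA factor of stem and progenitor cells, and Gata1 replaces it at many of the same sites as erythroid and megakaryocyte cells mature. Runx1 is needed for the emergence of HSCs and later for megakaryocyte maturation, and Klf1 and Nfe2 are best known for globin genes and for platelet release.

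Libraries held between 3537269 counts (WT replicate 3) and 8131344 counts (WT replicate 2), and 3 counts correspond to between 0.369 and 0.927 normalised CPM (read counts scaled to a common library size with edgeR's TMM factors). Med23 itself was at 47.6, 70.8 and 24.1 CPM in the WT libraries and at 31.6, 29.8 and 36.8 CPM in the KO libraries, in the order of their replicate numbers, which is used throughout. WT replicate 3, as it is labelled, held less Med23 than any KO library. The log2 fold change of -0.54 (SE 0.41) did not pass the test (edgeR, adjusted p = 0.989). It was -0.85 without WT replicate 3 (95% interval -1.63 to -0.08), with an unadjusted p of 0.0337 and an adjusted p of 0.671 in edgeR, and without replicate 3 of both groups it was -0.93 (-1.82 to -0.05), with 0.0408 and 0.746. This library also stood apart in other respects, with the fewest counts, the lowest voom quality weight (0.722) and 18.1% of its counts on Gm26917 and Gm42418, against 6.11 to 12.0% in the others. Y-linked genes had 1 count in WT replicate 3 and 0 in KO replicate 3, and at least 1036 in every other library. Counts of genes are therefore also given without WT replicate 3 and without replicate 3 of both groups. All 14 HSC markers were tested, of which 4 (Kit, Ly6a, Hlf and Esam) were lower and 1 (Mecom, chosen after its values were seen) was higher in every KO library, beside 6.14% lower and 6.25% higher of all tested genes. These counts were 5 and 2 without WT replicate 3, beside 12.3 and 11.4% of all genes tested then, and without replicate 3 of both groups also 5 and 2, beside 18.8 and 17.4%. The summed level of 10 granulocyte markers was 2.58 to 10.2 CPM in WT and 0.728 to 11.5 CPM in KO. The 7 matched red cell markers summed to 25.4 to 51.6 CPM in WT and 26.0 to 56.3 CPM in KO, mostly Hbb-bt, with Slc4a1 at 0 in every library. Macrophage markers summed to between 7.18 and 35.5 CPM over the 6 libraries, and B cell markers to between 44.3 and 75.3. T cell markers summed to between 2.46 and 13.7 and endothelial markers to between 31.2 and 80.4. Markers of the progenitors outside the gate summed to 341, 418 and 426 CPM in WT and to 566, 428 and 528 CPM in KO. This sum was higher in every KO library, narrowly so for KO replicate 2. Of these 5 markers 3 were tested, and 1 was higher in every KO library, beside 6.25% of all tested genes. Of 12 skeletal muscle markers, 10 were tested and 9 were lower in every KO library, with a sum of 137 to 328 CPM in WT and 7.50 to 13.8 CPM in KO. Of these, edgeR called 3 and DESeq2 8. Whether muscle RNA had a part in any result on the 10 genes was not tested.

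Levels were compared between genes only as FPKM, which divides by gene length. In WT the order of the means ran from Lmo2 (118 ± 28.1 FPKM, SD, n = 3) through Nfe2 (60.2 ± 4.62), Zfpm1 (58.0 ± 27.6), Gata2 (26.5 ± 10.4), Gfi1b (18.4 ± 9.67), Ldb1 (14.4 ± 5.46), Tal1 (11.6 ± 2.61), Runx1 (9.22 ± 1.30) and Klf1 (5.30 ± 3.91) to Gata1 (4.71 ± 3.04). Lmo2 alone stood clear of its neighbour in WT, since its lowest library (87.2 FPKM) was above the highest value of Nfe2 (64.1 FPKM), and the ranges of all 8 other neighbouring pairs overlapped. In KO the means kept this order apart from the last pair, where Gata1 (2.46 ± 0.698 FPKM) came before Klf1 (1.55 ± 0.712). Neighbours that did not overlap in KO were Lmo2 and Nfe2, Gfi1b and Ldb1, and Runx1 and Gata1. HSCs of both groups held far more transcript per length of the stem cell factor Gata2 than of Gata1 or Klf1, the factors of erythroid maturation. Gata2 was at 17.8 to 38.0 FPKM over the 6 libraries, Gata1 at 1.83 to 7.89 and Klf1 at 0.864 to 9.58.

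**Figure D1:**
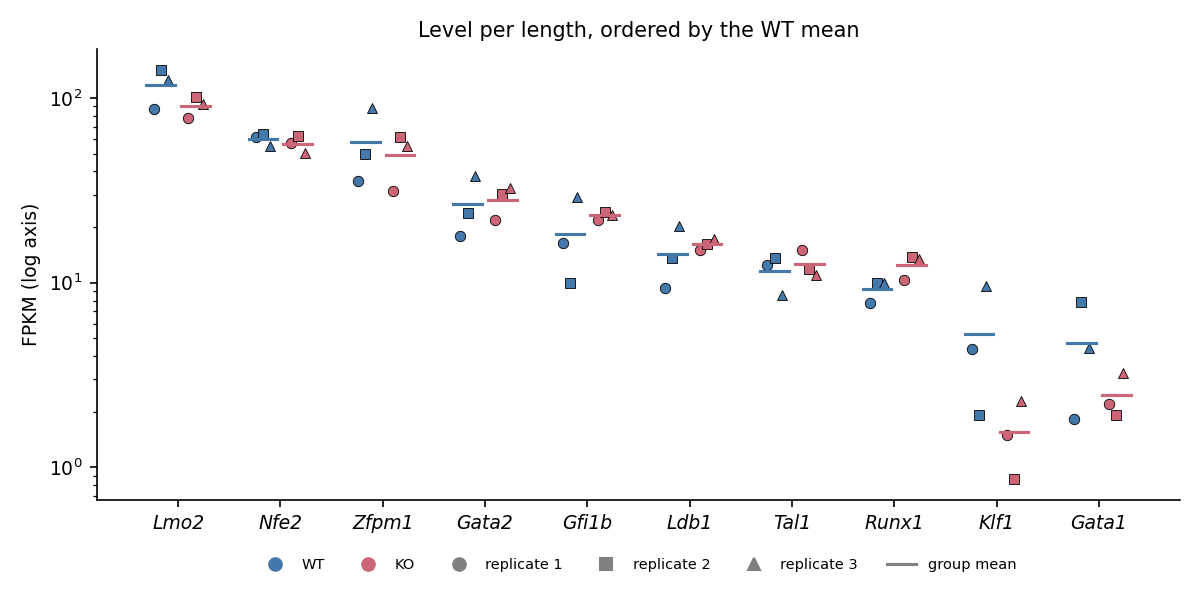
FPKM of the 10 genes (log axis) in the 3 WT (blue) and 3 KO (red) libraries, with replicates 1 to 3 as circles, squares and triangles, group means as bars, and genes ordered by their WT mean. Lmo2 was highest in both groups, between 77.5 and 142 FPKM, and Gata1 and Klf1 were lowest, below 10 FPKM in every library.

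No difference between WT and KO passed the test for any of the 10 genes. None passed an adjusted p of 0.05 with edgeR, against 0.0719% of all tested genes (0.016% higher and 0.0559% lower in KO), and none passed with DESeq2, against 0.984%. At an unadjusted edgeR p under 0.05 the count was also 0 of 10, against 5.71% of all tested genes. In other fits over the 6 libraries Klf1 had an unadjusted p of 0.0499 in DESeq2 (adjusted 0.611) and of 0.0407 when limma was run on log2(FPKM + 1) of genes with a mean of at least 1 FPKM (adjusted 0.701), beside 6.50 and 6.82% of the genes of those fits under 0.05. The estimates were evenly divided, 5 higher and 5 lower in KO, with a median log2 fold change of -0.06, beside -0.01 over all tested genes, of which 49.5% had a higher estimate. A result that misses the threshold does not show equal expression, so the intervals are given with each gene. For 6 of the 10 (Gata2, Tal1, Nfe2, Lmo2, Ldb1 and Runx1) the 95% interval lay within a 2-fold change in either direction, which held for 32.2% of all tested genes. Without WT replicate 3 this count was 4 of 10, beside 28.3% of all genes tested then, and without replicate 3 of both groups it was also 4 of 10, beside 24.1%. In bulk samples fewer cells expressing a gene and less RNA per cell cannot be told apart.

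**Figure D2:**
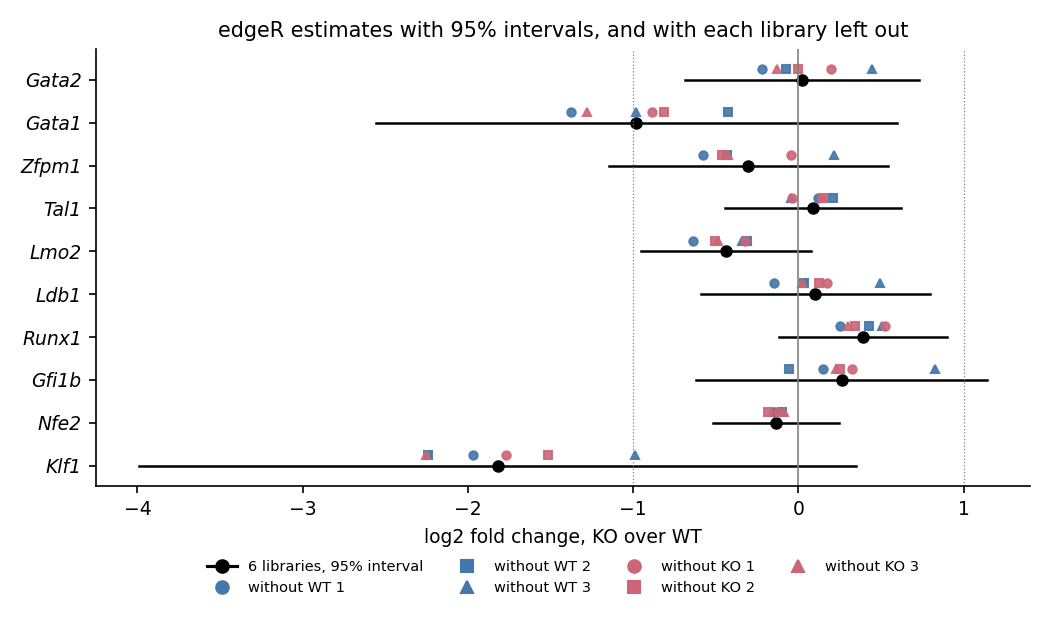
Log2 fold change of each gene, KO over WT, from edgeR (black point) with its 95% interval (line), and the estimates with each library left out in turn (blue for WT, red for KO; circle, square and triangle for replicates 1 to 3); dotted lines mark a 2-fold change. Every interval crosses 0, and those of Klf1 and Gata1 are widest.

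Gata2 (ENSMUSG00000015053, chr6:88193891-88207032 of GRCm38, plus strand) was counted at 147, 203 and 353 CPM in WT and 179, 247 and 288 CPM in KO. The KO values all fell between the lowest and the highest WT value. Its log2 fold change was 0.02 (SE 0.32, 95% interval -0.69 to 0.73). The estimate changed sign with the library left out, from -0.22 without WT replicate 1 to 0.44 without WT replicate 3.

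Gata1 (ENSMUSG00000031162, chrX:7959260-7978071, minus strand), which drives erythroid and megakaryocyte maturation, had 24, 177 and 43 reads in the WT libraries and 29, 28 and 46 in the KO libraries. These are 4.92, 21.8 and 13.3 CPM in WT and 5.88, 5.10 and 9.31 CPM in KO. WT replicate 2 was highest and WT replicate 1 lowest of all 6, so that the KO values lay inside the WT range. The 2 WT libraries differed by more than counting error, since the exact Poisson 95% interval was 3.15 to 7.32 CPM for WT replicate 1 and 18.7 to 25.2 CPM for WT replicate 2. This gave a log2 fold change of -0.98 (SE 0.71, 95% interval -2.56 to 0.60, edgeR adjusted p = 0.989), and it was -0.43 without WT replicate 2. Poisson intervals cover counting error only, as the libraries carried no molecular identifiers that the sources describe.

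Zfpm1 (ENSMUSG00000049577, chr8:122282141-122337251, plus strand) encodes Fog1, the cofactor through which GATA factors recruit the NuRD deacetylase complex. It was at 148, 212 and 415 CPM in WT and 129, 253 and 245 CPM in KO. WT replicate 3 was far above the other 5 libraries, which overlapped. Its log2 fold change was -0.30 (SE 0.38, 95% interval -1.15 to 0.54), and the estimate changed sign to 0.21 without WT replicate 3.

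Tal1 (ENSMUSG00000028717, chr4:115056426-115071755, plus strand), the basic helix-loop-helix factor at the centre of the complex, was at 123, 137 and 95.2 CPM in WT and at 147, 115 and 115 CPM in KO. Values of both groups were mixed, with WT replicate 3 lowest and KO replicate 1 highest. KO and WT differed by a log2 fold change of 0.09 (SE 0.24, 95% interval -0.45 to 0.62).

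Lmo2 (ENSMUSG00000032698, chr2:103957986-103981878, plus strand) was at 571, 956 and 919 CPM in WT and at 503, 655 and 647 CPM in KO. WT replicates 2 and 3 were above every KO library, and WT replicate 1 fell between KO replicate 1 and the other 2 KO libraries. The log2 fold change was -0.44 (SE 0.23, 95% interval -0.95 to 0.07), with an unadjusted p of 0.086 and an adjusted p of 0.932 in edgeR. Without WT replicate 1 it was -0.64 with an unadjusted edgeR p of 0.0128, which was still 0.674 when adjusted. Lmo2 kept a lower estimate in KO under all 18 alternatives, between -0.64 and -0.31 where a single library was left out.

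Ldb1 (ENSMUSG00000025223, chr19:46031570-46045214, minus strand), whose protein dimerises and holds the ends of an enhancer-promoter loop, was at 74.8, 111 and 181 CPM in WT and 119, 128 and 146 CPM in KO. The KO values again fell inside the WT range. A log2 fold change of 0.10 (SE 0.31, 95% interval -0.59 to 0.80) was found, and 0.49 without WT replicate 3. Exons of Ldb1 share bases with Pprc1 on the opposite strand, and because the use of strand in counting is not given in the sources used here, some of its reads may belong to that gene.

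Runx1 (ENSMUSG00000022952, chr16:92601466-92826149, minus strand) had the highest positive estimate of the 10. It was at 137, 181 and 199 CPM in WT and 182, 241 and 254 CPM in KO. KO replicates 2 and 3 were above every WT library, and KO replicate 1 lay just above WT replicate 2 and below WT replicate 3. On the FPKM scale, which uses plain library totals, the groups did not overlap, with 7.72, 9.93 and 10.0057 FPKM in WT and 10.4, 13.7 and 13.4 FPKM in KO. The log2 fold change was 0.39 (SE 0.23, 95% interval -0.12 to 0.90), with an unadjusted p of 0.119 in edgeR. It stayed positive under all 18 alternatives, between 0.25 and 0.52 with a single library left out. An antisense gene that shares bases with it, Gm26626, had at most 5 reads in any library.

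Gfi1b (ENSMUSG00000026815, chr2:28609450-28621982, minus strand) encodes a repressor that works with the demethylase Kdm1a and its partner Rcor1 and limits the expansion of HSCs. It was at 50.4, 31.6 and 100.4 CPM in WT and 66.9, 74.1 and 76.7 CPM in KO. The KO libraries were close to each other and lay between the lower 2 WT libraries and WT replicate 3. KO over WT gave a log2 fold change of 0.26 (SE 0.40, 95% interval -0.62 to 1.14). Without WT replicate 3 it was 0.83 (95% interval 0.09 to 1.56), with an unadjusted edgeR p of 0.0309 and an adjusted p of 0.671, and without WT replicate 2 it was -0.06.

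Nfe2 (ENSMUSG00000058794, chr15:103248212-103258403, minus strand) encodes the large subunit of NF-E2, which pairs with small Maf proteins and is required for platelet release. It was at 549.7, 589 and 554 CPM in WT and 507, 549.6 and 484 CPM in KO. Nfe2 was the only gene of the 10 whose KO libraries all lay under its WT libraries (beside 12.4% of all tested genes without overlap in either direction), and the margin was narrow, with WT replicate 1 at 549.695 and KO replicate 2 at 549.618 CPM. In FPKM the groups overlapped. Gfi1b, Ldb1 and Runx1 were higher and Nfe2 lower in every KO library once WT replicate 3 was left out, beside 11.4 and 12.3% of all genes tested then. Without replicate 3 of both groups the same 3 were higher and Nfe2 and Klf1 lower, beside 17.4 and 18.8%. The outcome depended on the library left out. Without WT replicate 1, 0 of the 10 were higher and Gata1, Nfe2 and Lmo2 lower, beside 11.9 and 11.4%. Without WT replicate 2, 0 were higher and Klf1 and Nfe2 lower, beside 11.2 and 10.9%. For Nfe2 the log2 fold change was -0.14 (SE 0.17, 95% interval -0.52 to 0.25), and the exact permutation test of log2(CPM + 0.5) gave p = 0.1, the smallest that 3 samples against 3 can give.

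Klf1 (ENSMUSG00000054191, chr8:84901928-84905291, plus strand), the erythroid Kruppel-like factor that activates the adult beta-globin gene through CACCC motifs, had 32, 24 and 52 reads in WT and 11, 7 and 18 in KO. These are 6.56, 2.95 and 16.1 CPM in WT and 2.23, 1.27 and 3.64 CPM in KO. WT replicates 1 and 3 were above every KO library, and WT replicate 2 was below KO replicate 3. At these counts the exact Poisson interval of KO replicate 3 (2.16 to 5.76 CPM) covered the values of WT replicate 2 and KO replicate 1, so that those 3 libraries were not distinguishable at this depth. The log2 fold change was -1.82 (SE 0.98, 95% interval -3.99 to 0.35), the largest in size of the 10 and the least precise, with an unadjusted p of 0.091 and an adjusted p of 0.933 in edgeR. Without WT replicate 3 it was -0.99. With at least 10 counts required in every library Klf1 was not tested.

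**Figure D3:**
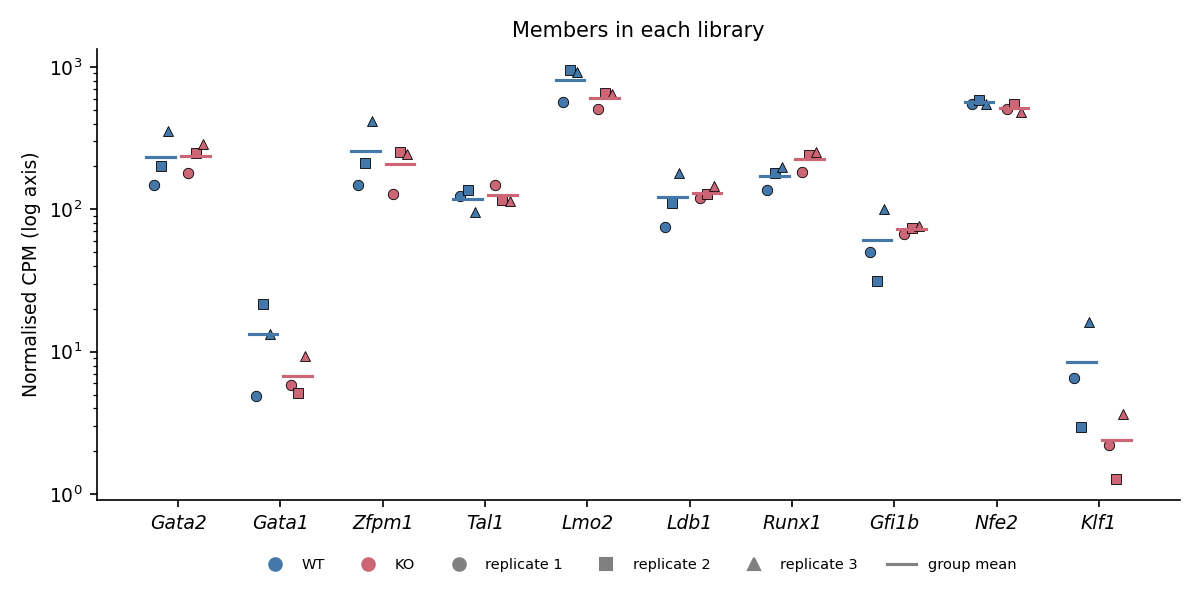
Normalised CPM (log axis) of the 10 genes, ordered by role, in the 3 WT (blue) and 3 KO (red) libraries, with replicates 1 to 3 as circles, squares and triangles and group means as bars. For most genes the 3 WT points are spread more widely than the 3 KO points, and only for Nfe2 do the groups not overlap.

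With all 6 libraries the 10 genes varied more among the WT than among the KO libraries, and this changed when replicate 3 was left out. The SD of log2(CPM + 0.5) was larger in WT for 9 of the 10, all but Nfe2, beside 57.8% of all tested genes, and the median SD was 0.64 in WT and 0.24 in KO, beside 0.48 and 0.40 over all tested genes. Without replicate 3 of both groups it was larger in WT for 5 of the 10, beside 51.3% of all tested genes, and the median SD was 0.38 in WT and 0.26 in KO, beside 0.32 and 0.31. With only WT replicate 3 left out it was larger in WT for 6 of the 10, beside 41.3%. WT replicate 1 held the lowest WT value of 7 of the 10 and the highest of 0, where over all tested genes it was lowest for 33.1% and highest for 33.9%. WT replicate 3 held the highest WT value of 6 of the 10, where over all tested genes it was highest for 36.6%. Among the KO libraries, KO replicate 1 was lowest for 6 of the 10, beside 35.2% of all tested genes. KO replicate 3 was highest for 6 of the 10, beside 35.4%. Gata2, Zfpm1, Ldb1 and Runx1 were each lowest among the WT libraries in WT replicate 1 and highest in WT replicate 3. Gata2, Ldb1 and Runx1 were likewise lowest among the KO libraries in KO replicate 1 and highest in KO replicate 3. The Pearson correlation of log2(CPM + 0.5) was 0.92 for Gata2 and Zfpm1, 0.94 for Gata2 and Ldb1 and 0.78 for Zfpm1 and Ldb1. Runx1 reached 0.75 with both Gata2 and Ldb1 and 0.53 with Zfpm1. Lmo2 reached 0.88 with Gata1, and Tal1 and Zfpm1 had -0.88. These correlations describe 6 libraries that share their depth and scaling, and they carry no test.

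**Figure D4:**
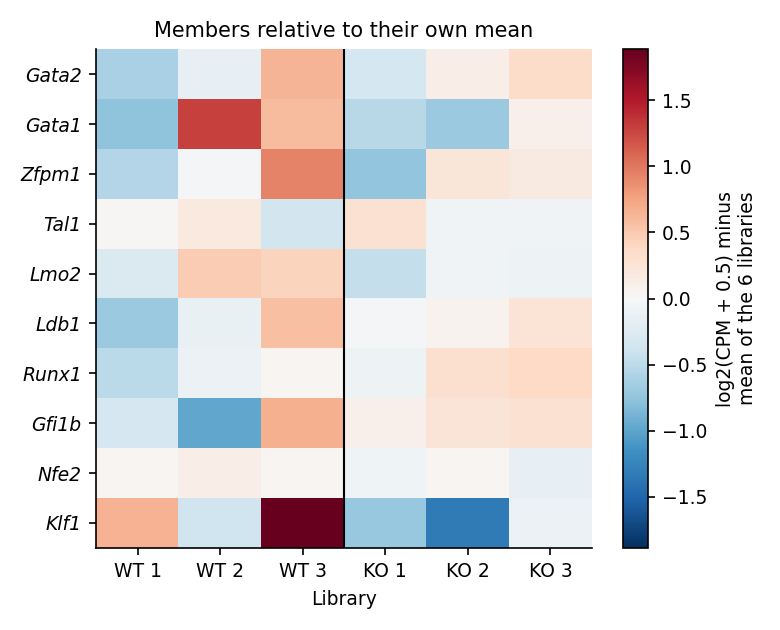
Level of each gene in each library as log2(CPM + 0.5) minus its mean over the 6 libraries (red above, blue below; log2 units), with WT left and KO right of the line. WT 1 is below the mean for 7 of the 10 genes, and WT 3 is above it for all but Tal1, with the largest value, 1.89, for Klf1.

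For the 4 genes with most counts, the genes with the most similar pattern were found among 10136 tested genes with a mean of at least 50 counts. They were Zmiz2 (Pearson r = 0.995) and Gfod2 (0.994) for Lmo2, Zfp820 (0.988) and Arhgap39 (0.985) for Nfe2, Ltb (0.992) and Trim47 (0.991) for Gata2, and Dyrk1b (0.992) and Ccdc23 (0.992) for Zfpm1, each over 6 libraries. So high a likeness was common at this number of libraries, since between 63 (for Nfe2) and 238 (for Gata2) genes had r above 0.9.

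The partners of these factors were next compared, by lists of genes known from textbooks to act with them. Of 15 partners of the Tal1, Lmo2 and Ldb1 complex 12 were tested, 8 with a higher and 4 with a lower estimate in KO, a median log2 fold change of 0.22, and no gene whose groups did not overlap. Lyl1, the close relative of Tal1, was at 357, 346 and 482 CPM in WT and 471, 527 and 560 CPM in KO (log2 fold change 0.39, 95% interval -0.05 to 0.84). Cbfa2t3, the corepressor Eto2 of the complex, was at 155, 281 and 325 CPM in WT and 225, 362 and 404 CPM in KO (0.38, -0.30 to 1.07). Neither passed the test, with edgeR adjusted p-values of 0.928 and 0.989. Ssbp2, which protects Ldb1 from degradation, had an estimate of 0.24 (-0.28 to 0.76), and Runx1t1 of 1.34 (-0.36 to 3.04) at no more than 19.8 CPM.

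Inhibitors and DNA-binding relatives included a few genes without overlap between the groups, none of which passed the adjusted threshold in edgeR. Over all tested genes 6.25% were higher and 6.14% lower in every KO library, which stands beside each such gene here and in the next paragraphs. Id2, which sequesters E proteins away from factors such as Tal1, was at 9.64, 9.71 and 7.11 CPM in WT and 19.9, 14.6 and 29.9 CPM in KO, with a log2 fold change of 1.28 (95% interval 0.14 to 2.41) and an adjusted p of 0.786 in edgeR. Id1 overlapped between the groups (0.68, -0.97 to 2.33), and 2 of the 4 Id genes were tested. Id3, named after its values were seen, was removed by the filter, with 15, 9 and 11 reads in WT and 0 in each KO library (DESeq2 adjusted p = 0.209). Cbfb, the partner without which Runx1 binds DNA poorly, was higher in every KO library, at 74.6, 82.3 and 89.6 CPM in WT and 129, 130 and 95.1 CPM in KO (0.52, -0.02 to 1.06, edgeR adjusted p = 0.909). Runx2 and Runx3 overlapped, with 0.15 (-0.50 to 0.80) and 0.30 (-1.16 to 1.75). Gata3 was the only one of 5 GATA and FOG relatives tested (-0.21, -1.17 to 0.76), and 4 of the 5 were at 3 reads or fewer in every library. Of the ETS factors that share sites with these genes in HSCs, Erg had an estimate of -0.06 (-0.70 to 0.59) and Fli1 of 0.26 (-0.16 to 0.68).

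Of 8 relatives of Nfe2 and small Maf genes 7 were tested, 6 with a higher estimate and a median of 0.26. Bach1, a repressor at NF-E2 sites, was higher in every KO library (0.37, 95% interval -0.05 to 0.79), and Maff was lower in every KO library (-1.17, -2.42 to 0.08). Nfe2l1 (0.21, -0.54 to 0.95) and Nfe2l2 (0.26, -0.25 to 0.76) overlapped. The 7 genes of the Gfi and corepressor list had a median of -0.04, with Rcor3 higher in every KO library (0.67, -0.11 to 1.44), Hdac1 at 0.35 (-0.16 to 0.86) and Hdac2 at -0.39 (-1.04 to 0.26). Of the 11 NuRD subunits, which Fog1 recruits, 3 had a higher and 8 a lower estimate, with a median of -0.04. Chd3, an ATPase of that complex, was the exception, at 72.4, 114 and 149 CPM in WT and 176, 166 and 312 CPM in KO, higher in every KO library (0.97, 0.24 to 1.69, unadjusted p = 0.0143 and adjusted p = 0.663 in edgeR). The other NuRD genes named by the rule were Chd4 (-0.02), Mta1 (-0.43), Mta2 (0.07), Rbbp4 (0.16) and Rbbp7 (-0.03), all with overlapping groups.

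Of 16 other Kruppel-like factors 11 were tested, 6 with a higher estimate and a median of 0.05. Klf6 was at 34.9, 38.1 and 64.3 CPM in WT and 118, 80.8 and 110 CPM in KO, higher in every KO library, with a log2 fold change of 1.18 (95% interval 0.47 to 1.89). Its unadjusted p was 0.00413 in edgeR, and its adjusted p was 0.418 in edgeR and 0.065 in DESeq2. Klf3 (0.27), Klf9 (-0.74), Klf10 (0.05) and Klf12 (-0.52) overlapped between the groups. Among 7 lineage antagonists of the GATA factors 4 were tested. Irf8, which directs monocyte development, was at 3.49, 23.6 and 5.25 CPM in WT and 89.1, 34.0 and 54.0 CPM in KO (2.41, 0.88 to 3.95). It passed in DESeq2 (adjusted p = 0.0315) and not in edgeR (adjusted p = 0.470). Spi1, whose protein PU.1 and Gata1 inhibit each other, overlapped with 187, 242 and 282 CPM in WT and 232, 303 and 349.9 CPM in KO (0.31, -0.21 to 0.84), and Cebpb (-0.02) and Cebpe (0.91) overlapped too. Cebpa, a factor of granulocyte fate named after its values were seen, was removed by the filter, with 0, 1 and 0 reads in WT and 22, 19 and 7 in KO (DESeq2 adjusted p = 0.195).

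Leaving out libraries changed how many list genes had groups that did not overlap. Without WT replicate 3, where 11.4% of all genes tested were higher and 12.3% lower in every KO library, the Tal1, Lmo2 and Ldb1 partners had 2 higher and 0 lower, the Nfe2 relatives 2 and 1, the Gfi and corepressor list 3 and 0, the Kruppel-like factors 1 and 1 of 12, and the lineage antagonists 3 and 0 of 5. Without replicate 3 of both groups (17.4 and 18.8%) these counts were 2 and 2, 3 and 1, 3 and 0, 1 and 1, and 3 and 0. The median of the Gfi and corepressor list was 0.32 without WT replicate 3, and the estimate of Cebpb was 0.88.

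Targets of the factors were then counted by lineage. Of 29 matched erythroid targets 5 were at 3 reads or fewer in every library, with 2 of them at 0, and 13 were tested. Their median log2 fold change was -0.09, 6 estimates were higher and 7 lower, and none passed in edgeR. Of the 13, 4 were lower in every KO library (6.14% of all tested genes were) and 1 was higher in every KO library (6.25%). Epor, the erythropoietin receptor, was at 14.8, 13.3 and 50.1 CPM in WT and 5.27, 3.64 and 7.08 CPM in KO. The difference was -2.28 on the log2 scale (95% interval -3.75 to -0.81), with an adjusted p of 0.477 in edgeR and 0.0602 in DESeq2. It was -1.39 (-2.94 to 0.16) without WT replicate 3, and without replicate 3 of both groups -1.64 (-3.38 to 0.10). Icam4, a red cell adhesion molecule, was at 16.4, 25.4 and 34.3 CPM in WT and 3.24, 9.28 and 5.67 CPM in KO. It had a log2 fold change of -2.06 (-3.34 to -0.77) and was the only erythroid target past the threshold in DESeq2 (adjusted p = 0.0493, edgeR 0.461). Aqp1, a water channel, was also lower in every KO library (-1.15, -2.07 to -0.22), and so was Rhag (-0.84), which lies outside the rule for named genes. Hemgn, a nuclear protein of haematopoietic progenitors, was higher in every KO library (0.70, 0.02 to 1.37), with an unadjusted p of 0.0437 and an adjusted p of 0.858 in edgeR. Car2 was by far the most abundant of the list, above 1000 CPM in every library, and overlapped (-0.24, -0.65 to 0.16), as did Xpo7 (0.31, -0.28 to 0.90). Without WT replicate 3 the list had 4 genes lower and 1 higher in every KO library, and without replicate 3 of both groups 5 and 1, beside 12.3% and 11.4%, and 18.8% and 17.4%, of all genes tested then.

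All 13 genes of haem synthesis and iron import were tested, 3 with a higher and 10 with a lower estimate, with a median of -0.18. Alad, the second enzyme of the pathway, was lower in every KO library (-0.71, 95% interval -1.42 to -0.0028), with an unadjusted p of 0.0492 and an adjusted p of 0.871 in edgeR. The mitochondrial transporters Slc25a38 (0.86, -0.12 to 1.84) and Abcb10 (0.67, -0.14 to 1.48) were higher in every KO library. Urod (-0.39) and Fech (-0.03) overlapped between the groups. The 2 genes higher and 1 lower in every KO library became 2 and 3 without WT replicate 3, beside 11.4 and 12.3% of all genes tested then, and 4 and 4 without replicate 3 of both groups, beside 17.4 and 18.8%.

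Several megakaryocyte targets were higher in every KO library. Of 28 genes 23 were tested, 16 with a higher and 7 with a lower estimate and a median log2 fold change of 0.53, beside -0.01 over all tested genes. In this list 8 genes were higher in every KO library, beside 6.25% of all tested genes, and 1 was lower in every KO library (6.14%). At an unadjusted edgeR p under 0.05, 7 were higher and 1 lower, beside 2.94 and 2.77% of all tested genes, and none passed when adjusted. DESeq2 called 3 of them. Slc14a1, the urea transporter, was at 64.6, 50.5 and 43.9 CPM in WT and 127, 118 and 123 CPM in KO (log2 fold change 1.21, 95% interval 0.64 to 1.78, DESeq2 adjusted p = 0.00272, edgeR 0.224). Rgs18, a regulator of G protein signalling in platelets, was at 146, 190.2 and 168 CPM in WT and 301, 349.6 and 283 CPM in KO (0.89, 0.44 to 1.34, DESeq2 adjusted p = 0.0159). Selp, or P-selectin, was at 129, 110.1 and 83.4 CPM in WT and 194, 191 and 267 CPM in KO (1.01, 0.47 to 1.56, DESeq2 adjusted p = 0.0302). Mmrn1 (0.82, -0.05 to 1.68) and Tbxas1 (0.12, -0.28 to 0.52) overlapped. The gene that was lower in every KO library was Vwf, von Willebrand factor, at 337, 193 and 181 CPM in WT and 107, 146 and 67.8 CPM in KO (-1.15), which was chosen after its values were seen. Without WT replicate 3 the list had 8 genes higher and 3 lower in every KO library, beside 11.4 and 12.3% of all genes tested then, and without replicate 3 of both groups 9 and 3 of 22, beside 17.4 and 18.8%. Of the mast cell and basophil targets 8 of 12 were at 0 in every library, 2 were tested, Cpa3 overlapped (0.11, and 2.64 without WT replicate 3), and Kit was lower in every KO library (-0.38, -0.78 to 0.02).

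**Figure D5:**
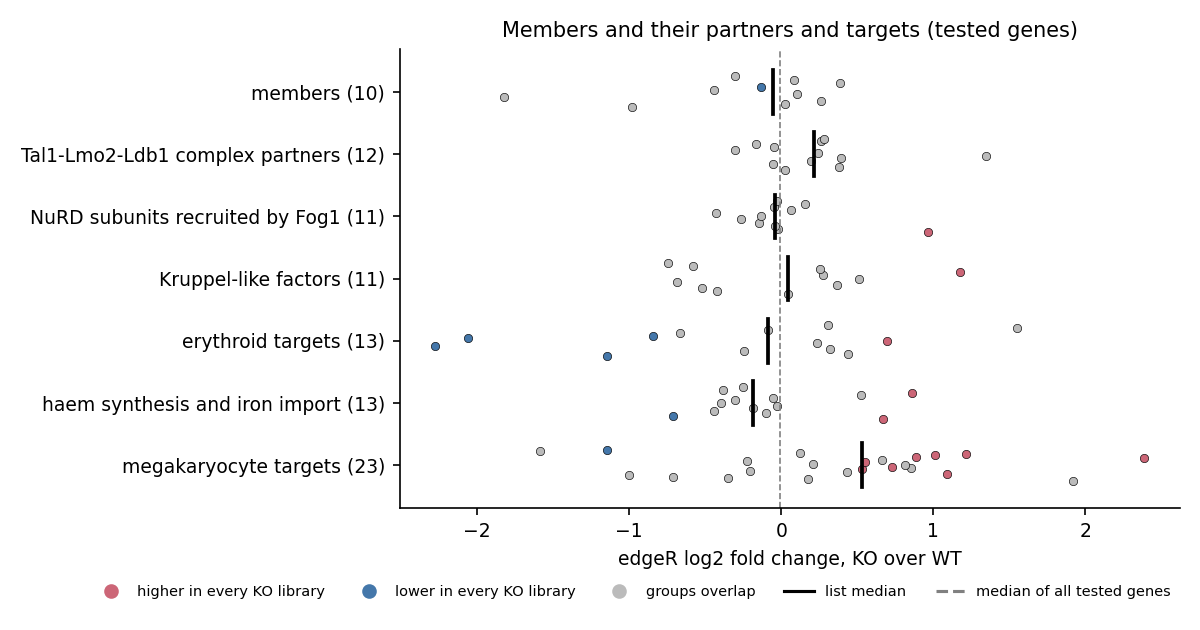
edgeR log2 fold change, KO over WT, of every tested gene of 7 lists (number tested in brackets), coloured red where all KO libraries were above and blue where all were below the WT libraries, with list medians as black bars and the median of all tested genes as a dashed line. The 10 factors have a median of -0.06, with Klf1 at -1.82 and Gata1 at -0.98, and the partner Runx1t1 lies at 1.34. The 4 blue erythroid targets reach -2.28, and 8 of the 23 megakaryocyte targets are red.

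Members of this network are known to bind the regulatory DNA of each other's genes, so the 250 bases before RefSeq transcript starts were searched for their motifs in RefSeq windows of GRCm38.p6, which matched 8 of the 10 genes in 13 windows. Nfe2 and Lmo2 were not matched. GATA motifs (AGATAA, its variant TGATAA, and the forms that end in G, AGATAG as well as TGATAG, on either strand) were in 1 window each of Gfi1b, Tal1, Klf1 and Ldb1, and in 26.5% of 32851 windows of all genes. The stretches around these motifs are shown, in the direction of transcription with the GATA match in capitals. They cover genes well expressed in these HSCs and also Klf1, which had between 7 and 52 reads in a library. They lie at chr2:28622047-28622152 (minus strand) for Gfi1b, chr4:115056176-115056276 (plus) for Tal1, chr8:84901852-84901927 (plus) for Klf1 and chr19:46037215-46037320 (minus) for Ldb1.
Gfi1b: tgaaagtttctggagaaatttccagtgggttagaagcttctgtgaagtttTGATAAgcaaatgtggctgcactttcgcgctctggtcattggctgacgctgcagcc
Tal1: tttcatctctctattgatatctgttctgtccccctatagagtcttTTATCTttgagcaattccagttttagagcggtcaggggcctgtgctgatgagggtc
Klf1: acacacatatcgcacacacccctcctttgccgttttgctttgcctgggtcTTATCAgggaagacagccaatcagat
Ldb1: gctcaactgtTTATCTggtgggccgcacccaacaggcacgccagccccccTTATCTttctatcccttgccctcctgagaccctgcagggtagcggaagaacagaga
Distances count from the RefSeq start of each window, which for Gfi1b and Tal1 is the 5′ end of the gene as placed above, for Klf1 lies 54 bases downstream of it, and for Ldb1 is an internal start 8144 bases downstream. The match of Gfi1b begins 120 bases before that start, that of Tal1 205, that of Klf1 80 and those of Ldb1 240 and 200 bases. The Tal1-type E-box CAGATG, found in 14.4% of all windows, and the RUNX motif (TGTGGT or, as a variant, TGCGGT, 18.6%) were each in a window of Klf1 only, 59 and 133 bases before the start. For the CACCC motif of Klf1 only the exact form CCACACCC (3.20%) was searched, and it was in none of the 13 windows. The shorter letters CACCC do occur in the stretches printed for Klf1 and Ldb1. The 4 genes with a GATA motif had log2 fold changes of 0.26, 0.09, -1.82 and 0.10, and none passed the test. A match describes letters in a window and does not show that a factor bound there.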

How the data were processed

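Bulk RNA-seq of 3 WT and 3 KO samples was grouped by the sample labels. The authors deposited raw read counts per gene, for which the submitters' processing notes name TopHat, HTSeq and mm10 without versions, and FPKM values, which equalled those counts divided by gene length and library total. The labels name the SMART-Seq v4 kit and the paper's methods the TruSeq kit.

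The test of the counts was edgeR 4.0.16 in R 4.3.3 (filterByExpr, TMM, robust quasi-likelihood test, Benjamini-Hochberg adjustment over all 12513 genes at 0.05). The SE is the log2 fold change over the square root of F, and intervals are 95%. Exact permutation tests used log2(CPM + 0.5), two-sided. Alternatives were DESeq2 1.42.0, upper-quartile scaling, other filters, a replicate block, limma 3.58.1 on FPKM, voom weights, library sizes without Gm26917 and Gm42418, and each library left out. Leaving out replicate 3 of both groups, a term for Y-linked reads, and list counts and spreads without such libraries were added after seeing the data. Procedures were tested on simulated data.

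The 10 genes and all lists were chosen with earlier results of these data known. Named list genes were those called by edgeR or DESeq2, the 3 most abundant and the 3 with the lowest unadjusted p. Some genes that this rule names are not reported here. A symbol with several identifiers was given to 1 identifier. Of 34745 identifiers 34267 were in GENCODE M21 (GRCm38), the source of coordinates. Of 30 erythroid targets and 8 red cell markers 1 each, Ahsp, was not matched.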

Additional observations from a re-analysis of the deposited data

How the results depend on the processing

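The count of 0 of the 10 genes past the threshold was the same under all 18 alternatives, and no member passed it; the smallest adjusted p was 0.504, for Lmo2. Klf1, Gata1, Nfe2, Lmo2 and Runx1 kept their direction throughout, and Gata2, Gfi1b, Tal1, Zfpm1 and Ldb1 did not. The estimates of those that did not were smaller than their SE, but so was that of Nfe2. The lowest and highest log2 fold changes with a single library left out were -0.22 and 0.44 for Gata2, -0.056 and 0.83 for Gfi1b, -0.0462 and 0.21 for Tal1, -0.58 and 0.21 for Zfpm1, and -0.15 and 0.49 for Ldb1. Zfpm1 was also 0.10 without replicate 3 of both groups. The number of all genes past the threshold, 9 in edgeR, was 149 in DESeq2, 15, 18 and 28 in limma on log2(FPKM + 1) with and without its filter and on log2(FPKM + 0.1), 0 with voom weights, and between 5 and 11 with a library left out. In the lists of partners, relatives and targets DESeq2 called 5 genes and edgeR 0. The replicate number as a block left 5 calls, all lower in KO, and 0 among the 10 genes, where Lmo2 had an unadjusted p of 0.0176 (adjusted 0.504) and Runx1 of 0.0421 (0.606), beside 8.03% of all genes under 0.05. The cause of these changes was not tested. The main fit did not take the numbers as a pairing. For this, the group mean of each tested gene was subtracted from its log2(CPM + 0.5), and the remaining deviations were correlated between WT and KO samples. Correlations of these deviations for same-numbered samples were 0.170, 0.032 and 0.170. Without that subtraction the same-numbered libraries had correlations of 0.869, 0.878 and 0.830. The deviations of differently numbered samples had correlations from -0.173 (WT replicate 3 and KO replicate 1) to 0.035 (WT replicate 2 and KO replicate 1). Whether same-numbered samples belonged together was not tested. Of 56 list genes, 16 changed sign under some alternative. Many of these estimates were near 0 in the main fit, but not all, as with Cebpe (0.91, SE 1.67) and Alas2 (-0.44, SE 1.44). Cebpb (-0.02) was 0.00467 without a filter, 0.26 with the block, 0.26 in both fits on log2(FPKM + 1), 0.28 on log2(FPKM + 0.1), 0.55 with voom weights, 1.06 without replicate 3 of both groups and 0.27 with the Y-linked term. In the fits on log2(FPKM + 1), with and without filter, on log2(FPKM + 0.1), with voom weights and without replicate 3 of both groups, Chd4 was 0.0286, 0.0286, 0.0292, 0.0015 and 0.12 and Erg was 0.0276, 0.0276, 0.0293, 0.0457 and 0.13. With the block, the same 3 FPKM fits and the Y-linked term, Fech was 0.0127, 0.062, 0.062, 0.0662 and 0.0155, and Rbbp7 was 0.00887, 0.0566, 0.0566, 0.0578 and 0.000372. Without replicate 3 of both groups Cebpe was -0.52, Klf10 -0.24 and Runx2 -0.0218, and with voom weights Klf10 was -0.0698. With a library left out, the range was -0.92 to 0.14 for Alas2, -0.33 to 0.88 for Cebpb, -0.11 to 0.11 for Chd4, -0.41 to 2.64 for Cpa3, -0.285 to 0.245 for Erg, -0.24 to 0.18 for Fech, -0.47 to 0.16 for Gata3, -0.20 to 0.51 for Hbb-bt, -0.18 to 0.27 for Klf10, -0.13 to 0.96 for Klf3, -0.0884 to 0.37 for Mta2, -0.15 to 0.45 for Nfe2l1, -0.23 to 0.23 for Rbbp7 and -0.17 to 0.65 for Runx3. Gata1 and Klf1 had the fewest reads of the 10, as few as 24 and 7 in a library, and their WT libraries differed beyond counting error, for Klf1 with exact Poisson intervals of 1.89 to 4.39 CPM in WT replicate 2 and 12.0 to 21.1 CPM in WT replicate 3.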
